A study of Homo sapiens with 6 samples.

Results

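The proteasome genes were taken as every row of the deposited table whose symbol starts with PSMA, PSMB, PSMC, PSMD, PSME, PSMF or PSMG, which gave 48 of 16200 genes. Of these, 46 encode parts, regulators or assembly factors of the proteasome, and 2 (PSMC3IP and PSME3IP1) encode other proteins whose names derive from a subunit. The 46 were divided into 14 core genes, 3 immunoproteasome genes, 17 genes of the 19S cap, 5 activator or inhibitor genes and 7 assembly chaperones. PSMA8 and PSMB11, core subunits known from testis and thymus, were not analysed here. Expression was measured in RBE, an established human cholangiocarcinoma (bile duct cancer) cell line, in 3 libraries labelled NC and 3 labelled sgKCNQ3. The NC libraries are the control group, and the sgKCNQ3 libraries carry a guide named for KCNQ3, a subunit of a voltage-gated potassium channel. The study's design text places these libraries in a search for pathways downstream of KCNQ3. The labels do not state which effector the guide was used with, or whether replicates came from separate cultures or clones, so p-values measure the spread between these libraries, which may be technical.

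The proteasome degrades proteins that carry ubiquitin chains. Its core is a barrel with outer rings of alpha subunits, which form the gate, and inner rings of beta subunits, of which PSMB5 (chymotrypsin-like), PSMB6 (caspase-like) and PSMB7 (trypsin-like) cut peptide bonds. In immune cells and after interferon-gamma, PSMB8, PSMB9 and PSMB10 take their places and form the immunoproteasome, which alters the peptides offered to MHC class I. The 19S cap binds the core, recognises ubiquitin, removes it and unfolds the substrate. When proteasome activity falls short, NFE2L1 and its small MAF partners raise transcription of most subunit genes together.

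Total estimated counts per library ranged from 15601283 to 16089500, and all 48 genes passed the filter on low counts, as did 12565 genes in all. KCNQ3 itself was at 16.6, 16.2 and 16.1 CPM (read counts scaled to a common library total) in NC and at 13.9, 13.1 and 11.95 CPM in sgKCNQ3, a log2 fold change of -0.33 (SE 0.0841; edgeR quasi-likelihood test, Benjamini-Hochberg adjusted p = 0.00446). The groups did not overlap, and 16 of 18 alternative analyses kept the KCNQ3 call. The fall did not pass on log2(TPM + 1), where its adjusted p by limma was 0.151. All 8 biliary epithelial markers were detected, at a sum of 3641 to 3759 CPM in NC and 4010 to 4209 CPM in sgKCNQ3. Of the 8, 5 were called higher, where 14.0% of all tested genes were. What this contributes to the differences given here was not tested. Leukocyte markers, which mark cells rich in immunoproteasome, summed to 2.46 to 4.17 CPM in NC and 2.98 to 3.45 CPM in sgKCNQ3. ITGAM, at 1.36 to 2.34 CPM, LYZ and CD74 were detected in every library. CD3E was at 0 in every library but NC replicate 3. In bulk RNA a change in the share of a cell type cannot be told apart from a change in RNA per cell.

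Proteasome genes fell in sgKCNQ3 by small amounts where they passed the test, and none was called higher. Of the 46, 14 were called lower (30.4%) at an adjusted p below 0.05 and 0 higher, where 15.1% of all tested genes were called lower and 14.0% higher. At an unadjusted p below 0.05, 20 were lower and 1, PSMD5, was higher; DESeq2 called 11 lower and 0 higher. The genes called lower were PSMA1, PSMA2, PSMB3, PSMB4, PSMB5 and PSMB7 in the core, PSMC1, PSMC3, PSMD2, PSMD8, PSMD12, PSMD13 and PSMD14 in the cap, and the inhibitor PSMF1. Their log2 fold changes ran from -0.31 for PSMB5 to -0.12 for PSMA2, or changes of -19.2% to -7.72%. The median log2 fold change was -0.08 over the 46 genes and -0.007 over all tested genes. By class the medians were -0.10 for the core, -0.10 for the immunoproteasome, -0.10 for the cap, -0.08 for activators and -0.03 for assembly chaperones. The immunoproteasome median rests on 3 genes: it ran from -0.21 without NC replicate 1 to -0.001 without sgKCNQ3 replicate 1, and was -0.036 with length and GC trends removed. When a library was left out, the core median ran from -0.10 to -0.079 and the cap median from -0.132 to -0.066, the latter without sgKCNQ3 replicate 3. In CPM, 20 of the 46 lay lower in sgKCNQ3 with no overlap between groups, against 21.3% of all tested genes, and 2 lay higher without overlap, against 20.4%. Of the 46 log2 fold changes 40 were negative, as were 6475 of 12565 over all tested genes.

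**Figure D1:**
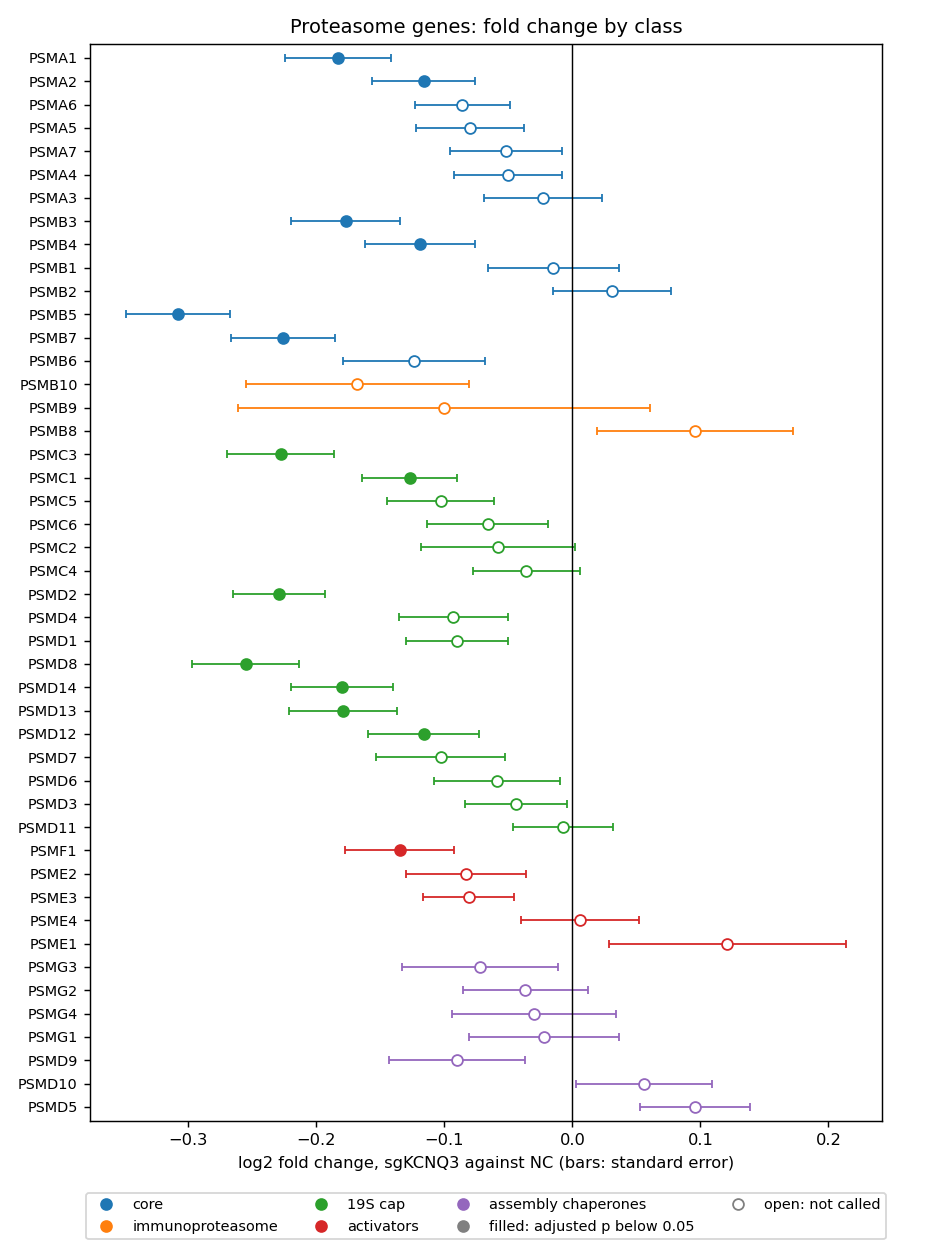
Log2 fold change of each of the 46 proteasome genes, sgKCNQ3 against NC, with its standard error (bars), coloured by class. Filled points passed an adjusted p of 0.05: all 14 lie left of 0, with PSMB5 lowest at -0.31, and no assembly chaperone or immunoproteasome gene is among them.

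Upstream sequences are shown for PSMB5, PSMD8, PSMC3 and PSMB3, which fell, and for the immunoproteasome gene PSMB9, which did not pass the test; they were picked after the values were seen. Each line gives bases 200 to 41 before the start site on the gene's strand, from RefSeq on GRCh38.p14. Capitals mark TGANNNNGC and CCAAT on either strand. TGANNNNGC is a loose form of the core of the antioxidant response element that NFE2L1 or NFE2L2 binds with a small MAF protein. It allows any letter after TGA, so a match need not be that element. CCAAT holds the letters bound by NF-Y.
PSMB5 (chr14:23035261-23035420, minus strand, the farther upstream of its 2 listed starts): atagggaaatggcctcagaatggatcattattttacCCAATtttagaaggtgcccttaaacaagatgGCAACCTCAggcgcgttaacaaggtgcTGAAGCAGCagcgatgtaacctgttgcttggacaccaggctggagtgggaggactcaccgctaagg
PSMD8 (chr19:38374371-38374530, plus strand): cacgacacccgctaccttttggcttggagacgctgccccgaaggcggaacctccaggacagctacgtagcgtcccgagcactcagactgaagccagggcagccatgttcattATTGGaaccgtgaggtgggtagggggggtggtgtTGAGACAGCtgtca
PSMC3 (chr11:47426480-47426639, minus strand): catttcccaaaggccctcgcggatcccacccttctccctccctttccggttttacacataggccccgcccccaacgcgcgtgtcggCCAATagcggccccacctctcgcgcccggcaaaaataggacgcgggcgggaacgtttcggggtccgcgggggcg
PSMB3 (chr17:38752541-38752700, plus strand): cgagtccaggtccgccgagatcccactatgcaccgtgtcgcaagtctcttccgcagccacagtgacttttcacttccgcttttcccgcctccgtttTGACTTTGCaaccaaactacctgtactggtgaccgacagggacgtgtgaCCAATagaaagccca
PSMB9 (chr6:32853992-32854151, plus strand): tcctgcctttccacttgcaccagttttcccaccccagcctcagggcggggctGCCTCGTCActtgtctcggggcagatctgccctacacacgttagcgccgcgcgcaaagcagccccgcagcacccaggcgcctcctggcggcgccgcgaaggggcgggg
PSMB5 holds TGANNNNGC on each strand, as TGAAGCAGC and, reversed, as GCAACCTCA, with CCAAT farther upstream. The printed bases leave out part of the windows counted below. There PSMB9 also held CCAAT and PSMC3 also held TGANNNNGC, so the printed lines do not separate genes that fell from PSMB9 by CCAAT.

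Promoter windows of 250 bases before to 50 after the start were listed for 40 of the 46 genes, without PSMA7, PSMB1, PSMB6, PSMB7, PSMD4 and PSMG3. TGANNNNGC lay in 26 of the 40 (65.0%), against 51.2% of 10354 tested genes and 41.8% of all 35116 windows. Among genes with a window it was found in 8 of 13 called lower and in 18 of 27 not called, a share no higher among the genes called lower. Of the 13 called lower, 4 held neither this nor the other pattern printed above: PSMA1, PSMC1, PSMD2 and PSMF1. The CCAAT letters lay in 19 of 40 (47.5%), against 43.4% of tested genes. They were found in 6 of 13 called lower and in 13 of 27 not called, a share no higher among the genes called lower. TTCNNNGAA, a pattern of interferon-gamma response elements, lay in 7 (17.5%), and GAAANNGAA, an interferon response pattern, in 8 (20%), each against 8.65% of tested genes. TTCNNNGAA was found in 3 of 13 called lower and 4 of 27 not called, and GAAANNGAA in 1 of 13 and 7 of 27. The GAAANNGAA genes were PSMA4, PSMB4, PSMB8, PSMB10, PSMC2, PSME1, PSME2 and PSMG4. A gene counted if any of its listed starts held the pattern. Each pattern was searched by itself on both strands, so matches can overlap, and a match is a run of letters, not a bound site.

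Among core genes, the catalytic subunits PSMB5 and PSMB7 fell most. PSMB5 was at 213, 218 and 202 CPM in NC and at 165, 176 and 171 CPM in sgKCNQ3, a log2 fold change of -0.31 (SE 0.0405, edgeR adjusted p = 3.44e-06). All 3 sgKCNQ3 values lay under the lowest NC value, and the call held in all 18 alternative analyses. PSMB7 was at 368, 395 and 365 CPM in NC and at 315, 337 and 311 CPM in sgKCNQ3 (log2 fold change -0.23, SE 0.0405, edgeR adjusted p = 0.000166). It too was separated in all libraries and called lower in all 18 alternatives. PSMB6, the remaining catalytic subunit, was at 82.8, 89.9 and 79.8 CPM in NC and 77.3, 71.0 and 83.4 CPM in sgKCNQ3. Its groups overlapped through sgKCNQ3 replicate 3 (log2 fold change -0.12, edgeR adjusted p = 0.0975), and without that library it was called (-0.18, edgeR adjusted p = 0.0198). It shrank to -0.059 without sgKCNQ3 replicate 2 (edgeR adjusted p = 0.417), to -0.074 without NC replicate 2 (edgeR adjusted p = 0.403) and to -0.054 with length and GC trends removed.

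In the alpha ring 2 of 7 genes (28.6%) were called lower, where 15.1% of all tested genes were. All 7 log2 fold changes were negative, as were 6475 of 12565 over all tested genes. PSMA1 was at 222, 202 and 221 CPM in NC and 190, 186 and 192 CPM in sgKCNQ3, without overlap (-0.18, SE 0.0413, edgeR adjusted p = 0.00163). PSMA2 was at 148, 141 and 145 CPM against 135, 132 and 133 CPM (-0.12, SE 0.0402, edgeR adjusted p = 0.0315). The groups were apart, but only 7 of 18 alternatives kept the PSMA2 call, and 1 of the 6 that leave out a library did. PSMA3, PSMA4, PSMA5, PSMA6 and PSMA7 were not called, with log2 fold changes from -0.09 for PSMA6 to -0.02 for PSMA3.

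The structural beta subunits did not move together. PSMB3 was at 164, 167 and 162 CPM in NC and 149, 136 and 150 CPM in sgKCNQ3, without overlap (-0.18, SE 0.0426, edgeR adjusted p = 0.00271). PSMB4 was at 200, 194 and 189 CPM against 172, 191 and 174 CPM; sgKCNQ3 replicate 2 lay above NC replicate 3, and the call (-0.12, SE 0.0427, edgeR adjusted p = 0.0379) held in 5 of 18 alternatives. PSMB1 and PSMB2 were not called, at -0.02 and 0.03. In both, sgKCNQ3 replicate 2 was the highest of the 6 libraries, at 185 CPM for PSMB1 and 200 CPM for PSMB2.

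**Figure D2:**
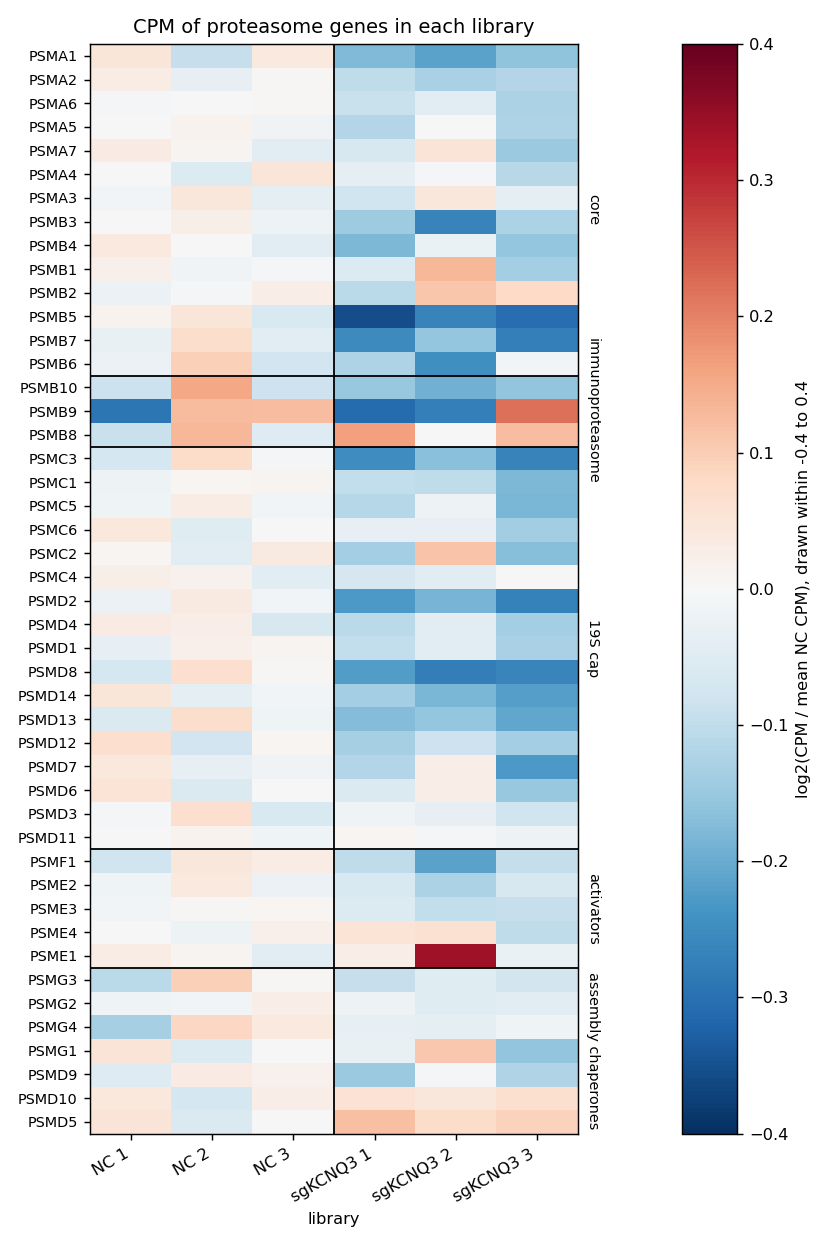
CPM of each proteasome gene (rows, by class) in each library (columns), as log2 of its ratio to the NC mean; blue is below the NC mean and red above. PSMB5, PSMB7, PSMC3, PSMD2 and PSMD8 are blue in all 3 sgKCNQ3 columns, while sgKCNQ3 2 is red for PSME1, PSMB1 and PSMC2.

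None of the immunoproteasome genes was called. PSMB8 (chr6:32840717-32844679) and PSMB9 (chr6:32854192-32859851) are neighbours in the MHC region. PSMB8 was at 19.6, 22.9 and 20.2 CPM in NC and 23.4, 20.9 and 22.8 CPM in sgKCNQ3; the groups overlapped (0.10, SE 0.0764, edgeR adjusted p = 0.366). PSMB9 rested on few reads, 57, 78 and 77 estimated counts in NC and 58, 59 and 84 in sgKCNQ3, with an SE of 0.161 on its log2 fold change of -0.10 (edgeR adjusted p = 0.676). With that SE, a change of the size measured for PSMB5 would lie within 2 SE of 0. Its log2 fold change ran from -0.286 without sgKCNQ3 replicate 3 and -0.224 without NC replicate 1 to -0.014 without sgKCNQ3 replicate 2 and -0.001 without sgKCNQ3 replicate 1; it was -0.033 without NC replicate 2 and -0.035 without NC replicate 3. PSMB10 was at 14.3, 16.9 and 14.3 CPM in NC and 13.6, 13.2 and 13.6 CPM in sgKCNQ3; all sgKCNQ3 libraries were lower, but the difference did not pass (-0.17, SE 0.0873, edgeR adjusted p = 0.153). Without NC replicate 2, its highest library, the PSMB10 value was -0.084 (edgeR adjusted p = 0.539), and with length and GC trends removed it was -0.07.

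On the length-scaled FPKM level, immunoproteasome genes were a small part of the catalytic transcripts. Of the summed FPKM of the 6 catalytic genes they made up 4.70%, 5.26% and 5.09% in the NC libraries and 5.93%, 5.36% and 5.98% in the sgKCNQ3 libraries. Each gene was then divided by the constitutive subunit it replaces, within a library. PSMB8 was 7.79%, 8.92% and 8.59% of PSMB5 in NC and 12.2%, 10.2% and 11.4% in sgKCNQ3, a difference of 0.42 in the log2 ratio. The groups did not overlap, and the exact two-sided permutation p was 0.1, the smallest that 3 against 3 libraries allow (0.3 after adjustment over the 3 ratios). PSMB5, the denominator, was called lower, and PSMB8 was not called. PSMB9 was 3.24%, 4.01% and 4.50% of PSMB6 in NC and 3.46%, 3.86% and 4.62% in sgKCNQ3 (exact permutation p = 0.9). PSMB10 was 3.92%, 4.31% and 3.97% of PSMB7 in NC and 4.36%, 3.96% and 4.41% in sgKCNQ3 (exact permutation p = 0.3). These ranges overlapped in both pairs.

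In the 19S cap, 7 of 17 genes (41.2%) were called lower, where 15.1% of all tested genes were. All 17 log2 fold changes were negative, as were 6475 of 12565 over all tested genes. Of the 6 ATPases that form the unfolding ring, PSMC3 and PSMC1 were called. PSMC3 was at 210, 232 and 219 CPM in NC and 186, 196 and 183 CPM in sgKCNQ3, without overlap (-0.23, SE 0.0421, edgeR adjusted p = 0.000235), and all 18 alternatives called it. PSMC1 was at 295, 301 and 302 CPM against 280, 279 and 264 CPM (-0.13, SE 0.0372, edgeR adjusted p = 0.0118), also apart, and 13 alternatives kept it. Reads of PSMC1 may be shared, since 13 pseudogenes are named after it, the most of any of these genes. PSMC5, PSMC6, PSMC2 and PSMC4 were not called, at -0.10, -0.07, -0.06 and -0.04.

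PSMD2, a large scaffold of the base, had the highest CPM of all 46 genes, at 709, 740 and 716 CPM in NC and 615, 635 and 598 CPM in sgKCNQ3. The groups were far apart (-0.23, SE 0.0358, edgeR adjusted p = 3.36e-05) and all 18 alternatives called it. The scaffold PSMD1 and the ubiquitin receptor PSMD4 were not called, at -0.09 each. In the lid, PSMD8 was at 170, 187 and 179 CPM in NC and 153, 147 and 148 CPM in sgKCNQ3 (-0.26, SE 0.0418, edgeR adjusted p = 5.74e-05), without overlap and in all 18 alternatives. PSMD14, the enzyme that cuts ubiquitin chains off substrates, was at 194, 183 and 186 CPM against 171, 165 and 161 CPM (-0.18, SE 0.0402, edgeR adjusted p = 0.00145), again without overlap. PSMD13 (-0.18) and PSMD12 (-0.12) were also called, in 16 and 7 of 18 alternatives. PSMD7, PSMD6, PSMD3 and PSMD11 were not called, and PSMD11 was nearly level, at 150, 152 and 148 CPM in NC and 151, 150 and 148 CPM in sgKCNQ3.

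Among the regulators that bind the ends of the core, only the inhibitor PSMF1 was called. It was at 222, 243 and 240 CPM in NC and 219, 203 and 220 CPM in sgKCNQ3 (-0.14, SE 0.0423, edgeR adjusted p = 0.0179). The groups were separated by the gap between NC replicate 1 and sgKCNQ3 replicate 3, and 12 of 18 alternatives kept the call. PSME1 and PSME2 encode partner subunits of the PA28 activator, which interferon-gamma induces, and lie near each other (chr14:24136194-24138962 and chr14:24143365-24146610). PSME1 was at 105, 104 and 100 CPM in NC and 105, 130 and 101 CPM in sgKCNQ3 (0.12, SE 0.0926, edgeR adjusted p = 0.378). Its difference came from sgKCNQ3 replicate 2 and was 0.008 without it; without sgKCNQ3 replicate 3 instead, it was called higher (0.20, edgeR adjusted p = 0.0373). PSME2 was at 70.7, 73.6 and 70.5 CPM against 68.7, 65.6 and 68.6 CPM and was not called (-0.08, edgeR adjusted p = 0.194). PSME3, the nuclear activator, and PSME4 were not called, at -0.08 and 0.006. With length and GC trends removed, PSME4 was called lower (-0.116, edgeR adjusted p = 0.0423).

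No assembly chaperone was called. The 4 chaperones of the core, PSMG1 to PSMG4, had log2 fold changes from -0.07 to -0.02. Of the 3 chaperones of the 19S base, PSMD5 and PSMD10 were higher in every sgKCNQ3 library and PSMD9 was at -0.09. PSMD5 was at 111, 103 and 107 CPM in NC and 116, 112 and 114 CPM in sgKCNQ3 (0.10, SE 0.043, edgeR adjusted p = 0.0982). It passed in 4 of 18 alternatives: upper quartile scaling, library size scaling and both tests on log TPM.

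The rows that are not proteasome parts also had negative fold changes. PSMC3IP, a meiotic recombination factor named for binding PSMC3, was at 18.8, 16.1 and 18.8 CPM in NC and 13.4, 16.3 and 13.1 CPM in sgKCNQ3 (-0.32, SE 0.0917, edgeR adjusted p = 0.0092), with overlap between NC replicate 2 and sgKCNQ3 replicate 2. PSME3IP1 was not called (-0.09, edgeR adjusted p = 0.113).

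Single libraries moved the number of proteasome genes called. The median log2 deviation of the 46 genes from their NC means was -0.10, -0.04 and -0.13 in sgKCNQ3 replicates 1, 2 and 3, against -0.008, 0.001 and -0.007 over all tested genes. Replicate 2 was the highest of all 6 libraries for 7 genes: PSMA7, PSMB1, PSMB2, PSMC2, PSME1, PSME4 and PSMG1. Without it, 19 of 46 were called lower, against 13.9% of all genes, with PSMA5, PSMA6, PSMC2, PSMC5, PSMD1, PSMD4 and PSMD7 gained and PSMA2 and PSMF1 lost. Without NC replicate 3, 9 were called lower, against 11.1%. PSMB5, PSMB7, PSMC3, PSMD2, PSMD8, PSMA1, PSMB3, PSMD13 and PSMD14 were called in each of the 6 analyses that leave out a library.

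Fold change varied with transcript length across the whole table, and most proteasome transcripts are short. Over tested genes the median log2 fold change rose from -0.08 in the shortest decile of transcripts (up to 1503 bases) to 0.12 in the longest (from 7665 bases). The median length was 1586 bases over the 46 proteasome genes and 3482 over all tested genes. In the shortest decile 5 of 18 proteasome genes were called lower, against 20.8% of all genes there, and in the next decile 5 of 10, against 23.9%. With each library's trends over length and GC removed, 16 of 46 were called lower and 0 higher, against 15.9% of all genes called lower. Of the 14, 13 remained and PSMB4 was lost, while PSMA5, PSMD1 and PSME4 were gained. The median over the 46 was then -0.06, and -0.013 over all tested genes. On log2(TPM + 1), a scale on which 4.88% of all genes were called lower and 20.6% higher, 5 were called lower (PSMB5, PSMB7, PSMC3, PSMD2 and PSMD8) and 1 higher (PSMD5). The median over the 46 genes on that scale was -0.015, and 0.065 over all tested genes. What length or scaling contributes to the calls was not tested.

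Levels per length differed widely between subunits of the same particle. In NC, FPKM was highest for PSMB7 (541 ± 19.2, SD, n = 3), followed by PSMA7 (367 ± 13.7) and PSMA6 (357 ± 4.19), which differed by less than their spread, and PSMB3 (349 ± 6.77). The core ran down to PSMB2 (44.3 ± 0.77) and PSMA5 (41.4 ± 0.289), a 13.1-fold range. Cap genes ran from PSMD2 (273 ± 4.63) to PSMD12 (34.9 ± 1.9), and core assembly chaperones lay close together, from PSMG2 (75.7 ± 1.4) to PSMG3 (58.3 ± 5.48). PSMB8 (23.5 ± 1.67), PSMD9 (23.3 ± 0.604) and PSMB10 (22.0 ± 1.91) did not differ beyond their spread, and PSMB9 was lowest of the 46 (6.17 ± 0.895). These values depend on the transcript length the authors assigned to each gene.

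Proteasome parts under other symbols and factors bound to the proteasome were mostly not called in the main fit. Of POMP, ADRM1, SEM1 and PAAF1, 1 was called lower: the ubiquitin receptor ADRM1, at 199, 204 and 210 CPM in NC and 189, 185 and 191 CPM in sgKCNQ3 (-0.12, SE 0.0384, edgeR adjusted p = 0.0224), a call that 8 of 18 alternatives kept. Its log2 fold change was -0.011 once the trends over length and GC content were removed. Of 8 bound enzymes and adaptors, 2 were called lower, without overlap and in 16 and 13 alternatives. AKIRIN2, which brings proteasomes into the nucleus, was at 65.5, 63.5 and 68.4 CPM in NC and 58.9, 56.2 and 57.1 CPM in sgKCNQ3 (-0.20, SE 0.0497, edgeR adjusted p = 0.00402). The thioredoxin-like TXNL1 was at 90.1, 88.1 and 91.1 CPM against 79.8, 84.1 and 77.6 CPM (-0.16, SE 0.0455, edgeR adjusted p = 0.0109). The medians of these lists were -0.02 and -0.06. Over all tested genes the median was -0.007, 15.1% were called lower, and 21.3% lay lower without overlap. With length and GC trends removed, 5 of the 8 bound enzymes and adaptors were called lower (median -0.138). Of the 4 parts under other symbols, 0 were called lower in that setting (median 0.009). There 15.9% of all tested genes were called lower, with a median of -0.013.

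In the NFE2L1 axis 6 of 7 genes were called lower, where 15.1% of all tested genes were. The median log2 fold change was -0.22, against -0.007 over all tested genes. The small MAF genes fell most. MAFF was at 99.0, 97.3 and 96.5 CPM in NC and 67.0, 64.4 and 64.5 CPM in sgKCNQ3 (-0.58, SE 0.0447, edgeR adjusted p = 4.88e-10). MAFG was at 159, 154 and 156 CPM against 127, 122 and 130 CPM (-0.31, SE 0.0409, edgeR adjusted p = 3.38e-06), and MAFK at 154, 150 and 150 CPM against 115, 113 and 128 CPM (-0.35, SE 0.0461, edgeR adjusted p = 3.19e-06). No sgKCNQ3 library reached an NC library in these genes, where 21.3% of all tested genes lay lower without overlap. NFE2L2 (-0.20), NFE2L1 (-0.12) and NGLY1 (-0.22), the enzyme that removes sugars from NFE2L1 and thereby activates it, were also lower, and the protease DDI2 was not called (0.07). MAFF, MAFG and MAFK were the 3 of these that passed on log2(TPM + 1).

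Of the 4 ubiquitin and E1 genes reported here, RPS27A, which encodes a ubiquitin fused to a ribosomal protein, was called lower (-0.14, SE 0.0414, edgeR adjusted p = 0.0123), in 13 of 18 alternatives too. It was at 822, 887 and 857 CPM in NC and 784, 820 and 724 CPM in sgKCNQ3, without overlap. Reads of RPS27A may be shared, since 20 pseudogenes are named after it. UBB, UBA1 and UBA6 were not called, at 0.02, -0.09 and 0.02. Among 11 shuttle and VCP segregase genes in the table, 1 was called lower and 1 higher, both without overlap. UFD1, a cofactor of VCP, was at 75.9, 77.5 and 79.8 CPM in NC and 69.8, 65.8 and 68.1 CPM in sgKCNQ3 (-0.20, SE 0.0468, edgeR adjusted p = 0.00271). The shuttle factor RAD23B was at 471, 461 and 448 CPM against 484, 517 and 480 CPM (0.10, SE 0.0377, edgeR adjusted p = 0.0424), a rise that 10 of 18 alternatives kept. Of the 11 interferon-gamma and antigen processing genes reported here, HLA-B and IRF1 were called lower, without overlap and in 18 and 11 of 18 alternatives. HLA-B was at 132, 140 and 137 CPM in NC and 117, 113 and 120 CPM in sgKCNQ3 (-0.23, SE 0.042, edgeR adjusted p = 0.000251). IRF1, a transcription factor that induces immunoproteasome genes, was at 51.0, 51.1 and 52.2 CPM against 43.2, 44.1 and 49.2 CPM (-0.18, SE 0.0565, edgeR adjusted p = 0.0204). The peptide transporter genes TAP1 and TAP2 were not called, at -0.05 and -0.03. HLA class I genes are near copies of each other, so their reads may be shared. The medians of these lists were -0.04, -0.04 and -0.05. Over all tested genes the median was -0.007, 15.1% were called lower and 14.0% higher. Without overlap, 21.3% of all tested genes lay lower and 20.4% higher.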

How the data were processed

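For each library the authors deposited estimated counts per gene, FPKM and TPM, in 1 table of 16200 genes. A deposited signal column (counts over 1 factor per library) and the authors' group means, some given as whole-number scores, were left unused. Per the submitters' processing notes, reads were placed on GRCh38.p13; the aligner, the counter and the handling of strand and multimapping were not given in the sources used here. For 21 proteasome genes RefSeq lists pseudogenes named after them, 52 in all, with which reads may be shared.

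Groups and replicate numbers came from the titles. Estimated counts were rounded and fitted in edgeR 4.0.16 (R 4.3.3) with filterByExpr (minimum count 10), TMM scaling, robust quasi-likelihood F tests and Benjamini-Hochberg adjustment over 12565 genes, threshold 0.05; CPM uses TMM-scaled library sizes. A fold change on log2(TPM + 1) understates low genes. No 2 libraries agreed within sampling noise. The 18 alternatives are scaling by RLE, upper quartile or library size, DESeq2 1.42.0, limma 3.58.1 (voom, and trend on TPM with pseudocounts of 1 and 0.1), no filter, a minimum of 2 CPM in 3 libraries, a block for the replicate number, length and GC trends removed (splines with 5 degrees of freedom, GENCODE 29 transcripts), both together, and each library left out. The main edgeR fit, but not the alternatives, was run on simulated data with the same spread between replicates for every gene. Its pass mark covered only changes larger than those of the proteasome genes. It therefore does not show how well calls this small are recovered. Promoters came from RefSeq GRCh38.p14, whose chromosome coordinates equal those of the build used.

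Members and lists were chosen with earlier results of these data known. Values are given in full for the 6 catalytic genes, the 2 called genes with the smallest p in each class list, the 2 largest fold changes in each direction, and the 3 called genes with the smallest p in each pathway list; PSMD5, PSMD11, PSME2 and others named beyond these were picked after their values were seen. Some genes of the pathway lists are not reported here, and the lists' counts and medians leave them out. Figures were drawn with matplotlib 3.10.9.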

Additional observations from a re-analysis of the deposited data

How the results depend on the processing

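The 14 proteasome genes called lower became 9 with library size scaling and 5 with limma on log2(TPM + 1) or log2(TPM + 0.1), and ran from 9 to 19 when a library was left out. The 0 called higher became 1 with upper quartile scaling, library size scaling, both TPM tests and the block with length and GC trends removed, and ran from 0 to 1 when a library was left out. PSMB5, PSMB7, PSMC3, PSMD2 and PSMD8 were called lower in all 18 alternatives. The whole table gave 3658 calls, and 2448 to 3822 across alternatives.

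Of the class medians, the core's became -0.065 (library size) and -0.025 (both TPM tests), the cap's -0.024 (both TPM tests; -0.132 to -0.066 when a library was left out), the immunoproteasome's ran from -0.21 to -0.001 when a library was left out, and the activators' became -0.061 (upper quartile), -0.045 (library size) and 0.007 (both TPM tests), with -0.09 to -0.054 when a library was left out. The assembly chaperones' became -0.010 (upper quartile), 0.007 (library size), 0.026 (both TPM tests), 0.020 (length and GC trends removed) and 0.021 (the same with the block), with -0.046 to -0.021 when a library was left out. The log2 ratio difference of PSMB9 to PSMB6 ran from -0.104 to 0.133 when a library was left out, so its sign rests on single libraries. KCNQ3 no longer passed on log2(TPM + 1) (-0.154) or log2(TPM + 0.1) (-0.217). The causes were not tested.

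Some calls named in the text ended when 1 library was left out. These were PSMA2, PSMB4, PSMD12 and RAD23B without NC replicate 1, and PSMB4, PSMF1, RPS27A and RAD23B without NC replicate 2. Without NC replicate 3 they were PSMA2, PSMB4, PSMC1, PSMD12, PSMF1, PSMC3IP, ADRM1, IRF1, RAD23B, RPS27A and TXNL1. Without sgKCNQ3 replicate 1 they were PSMA2, PSMB4, PSMD12, PSMC3IP, ADRM1, IRF1, RAD23B and TXNL1, without sgKCNQ3 replicate 2 PSMA2, PSMF1, ADRM1, IRF1 and RAD23B, and without sgKCNQ3 replicate 3 PSMA2, PSMB4, PSMC1, PSMD12, PSMC3IP, RPS27A and TXNL1.

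The shared replicate numbers did not pair the libraries: deviations of same-numbered libraries correlated at 0.014, -0.098 and 0.008 across genes. With the replicate block, 12 proteasome genes were called lower, PSMB4 and PSMD12 being lost, and 3136 genes in all. Depth limits PSMB9 most, at 57 to 84 estimated counts per library.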
